A study of Mus musculus with 2 samples.

Results

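The members described here are 8387 intergenic open regions of the newborn mouse bladder that lie 10 to 100 kb from the nearest transcription start site (TSS) of a protein-coding gene. They were chosen by position alone among the open regions that held a peak in each library, as follows. Overlapping peaks of 2 DNase-seq libraries were merged, and a merged region was kept where it held a peak of each library. The members are those kept regions whose midpoint fell in no gene body of the GENCODE M21 annotation and over 1 kb from any TSS. They made up 15.7% of the 53490 regions shared by the libraries. DNase-seq sequences the ends of DNA fragments that the enzyme DNase I releases from nuclei, so dense cuts mark accessible chromatin. The tissue was urinary bladder, taken at an age of 4 days from females of B6CASTF1/J, a strain that crosses C57BL/6J with CAST/EiJ. Biological replicates 1 and 2 came from separately numbered females listed under 1 donor identifier, carried no treatment, and formed the only group, so no conditions could be compared. With a single library per replicate, the spread between the replicates had no further check.

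DNA between genes holds several kinds of regulatory element. Enhancers are bound by transcription factors and act on promoters at a distance, and insulators bound by the zinc-finger protein CTCF anchor chromatin loops. Some open regions annotated as intergenic are promoters of transcripts that an annotation lacks. The bladder wall consists of a urothelium, a fibroblast-rich lamina propria and layers of smooth muscle, and the whole tissue was sampled in bulk.

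The replicates held 96518 and 122870 peaks in their longer lists. The height of a peak, as deposited, was a whole multiple of 0.00466 in replicate 1 and of 0.00417 in replicate 2, within 0.02 steps for all peaks. The median member was 138 steps high in replicate 1 and 139 in replicate 2. The sources used do not say that a step is 1 count. On that assumption, an exact 95% Poisson interval runs from 0.54 to 0.759 in replicate 1 and from 0.487 to 0.684 in replicate 2. It covers counting error only. The tissue label was checked against promoters. Smooth muscle markers had a promoter peak in both replicates at 5 of 6 genes (Myh11, Acta2, Tagln, Cnn1 and Des). Mesenchymal markers had one at 5 of 5, urothelial markers at 3 of 7 (Upk1b, Upk3a and Cdh1), and endothelial markers at 2 of 3 (Cdh5 and Kdr). No immune marker of 3 had one, and neither did Alb, Myod1 and Neurod1, the markers of other tissues. Longer lists were less clear-cut. A promoter peak in both replicates was at 19 of 21 smooth muscle, 19 of 24 mesenchymal, 15 of 26 urothelial and 9 of 18 endothelial genes. It was at 4 of 18 immune, 3 of 16 striated muscle, 6 of 15 central nervous system and 0 of 14 hepatocyte genes. Over all protein-coding genes the share was 62.3%.

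The sequences of 12 members follow, each the central 150 bp, on the plus strand of mm10 (GRCm38, read from the RefSeq copy of the assembly). Capitals mark bases inside a footprint in both replicates, where a footprint is a short stretch of protected bases that the authors called within a sample. The first set shows members in which a footprint lay on a match to the CTCF motif, or, for Cdh5, to a looser form of it. They are the tallest member nearest a mesenchymal gene (Hand1, chr11:57820096-57820245), a urothelial gene (Krt8, chr15:101984416-101984565) and an endothelial gene (Cdh5, chr8:104028756-104028905). The member nearest the median height of all members (by Mbip, chr12:56404998-56405147) is also in this set. Its CTCF match was interrupted by 1 base outside the shared footprint.
Hand1: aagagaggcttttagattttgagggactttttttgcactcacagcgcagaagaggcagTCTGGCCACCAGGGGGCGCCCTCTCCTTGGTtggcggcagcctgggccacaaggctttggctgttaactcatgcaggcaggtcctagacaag
Krt8: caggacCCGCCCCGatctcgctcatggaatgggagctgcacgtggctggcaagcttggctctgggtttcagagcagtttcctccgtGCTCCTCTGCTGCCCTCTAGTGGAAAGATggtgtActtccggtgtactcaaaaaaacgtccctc
Cdh5: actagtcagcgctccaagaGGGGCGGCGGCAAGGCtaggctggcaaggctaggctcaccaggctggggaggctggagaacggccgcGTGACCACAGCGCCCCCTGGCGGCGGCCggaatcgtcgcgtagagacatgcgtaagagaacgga
Mbip: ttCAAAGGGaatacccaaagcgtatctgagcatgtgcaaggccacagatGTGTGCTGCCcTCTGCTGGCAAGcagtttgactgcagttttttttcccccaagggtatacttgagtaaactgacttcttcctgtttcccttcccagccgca
The second set shows tall members with other sequence. They lie by Zfp395 (chr14:65343781-65343930, with KLF/SP matches), Foxk1 (chr5:142367361-142367510, with an NRF1 match), Irf2bp2 (chr8:126666576-126666725, with an NFI half-site) and Fos (chr12:85455236-85455385, with KLF/SP and E-box matches).
Zfp395: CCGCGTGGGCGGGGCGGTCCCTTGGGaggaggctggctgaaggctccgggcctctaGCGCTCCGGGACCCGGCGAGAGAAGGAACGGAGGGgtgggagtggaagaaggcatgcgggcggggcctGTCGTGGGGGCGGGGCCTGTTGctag
Foxk1: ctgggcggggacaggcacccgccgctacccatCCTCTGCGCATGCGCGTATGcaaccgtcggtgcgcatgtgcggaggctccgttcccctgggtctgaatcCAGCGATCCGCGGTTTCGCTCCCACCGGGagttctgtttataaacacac
Irf2bp2: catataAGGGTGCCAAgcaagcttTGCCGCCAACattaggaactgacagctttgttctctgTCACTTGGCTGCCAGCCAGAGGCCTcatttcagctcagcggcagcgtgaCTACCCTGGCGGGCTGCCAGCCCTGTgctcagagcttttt
Fos: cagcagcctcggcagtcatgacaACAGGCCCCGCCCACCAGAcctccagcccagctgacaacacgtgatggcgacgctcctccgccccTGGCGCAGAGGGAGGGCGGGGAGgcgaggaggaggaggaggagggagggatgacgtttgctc
The third set holds the 2 tallest members, by Igf2bp3 (chr6:49236451-49236600) and Pak3 (chrX:143482991-143483140), which differ in how far their letters recur elsewhere in the assembly. Of the 25-base words of the window, 0.794% occurred once for Igf2bp3 and 55.6% for Pak3. It also holds 1 member of median height from each of the 2 stretches with most members, upstream of Odc1 (chr12:17513266-17513415) and of Twist2 (chr1:91713201-91713350). These last examples were chosen after their values were seen, and neither had a base in a footprint of both replicates. Of their 25-base words, 49.2% occurred once for the Odc1 window and 100% for the Twist2 window.
Igf2bp3: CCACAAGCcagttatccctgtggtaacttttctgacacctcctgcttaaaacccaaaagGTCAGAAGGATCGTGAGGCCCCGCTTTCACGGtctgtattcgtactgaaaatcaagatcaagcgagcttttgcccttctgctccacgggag
Pak3: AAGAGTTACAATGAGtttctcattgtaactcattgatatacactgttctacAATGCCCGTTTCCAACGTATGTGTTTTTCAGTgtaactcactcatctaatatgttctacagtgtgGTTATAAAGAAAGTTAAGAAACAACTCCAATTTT
Odc1 stretch: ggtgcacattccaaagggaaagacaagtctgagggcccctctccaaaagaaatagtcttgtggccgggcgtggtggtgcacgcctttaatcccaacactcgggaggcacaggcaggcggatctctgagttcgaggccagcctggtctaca
Twist2 stretch: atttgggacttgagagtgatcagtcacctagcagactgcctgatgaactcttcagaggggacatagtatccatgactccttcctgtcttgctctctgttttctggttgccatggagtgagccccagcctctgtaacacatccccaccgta

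Members were lower than most open regions and were spread more thinly than those close to genes. Replicate 1 gave them a median height of 0.643 and replicate 2 one of 0.58; over all shared regions the medians were 0.871 and 0.717. The quartiles of the members were 0.265 and 1.1 in replicate 1 and 0.284 and 0.909 in replicate 2. Intergenic regions beyond 100 kb had medians of 0.382 and 0.394, intronic regions 0.68 and 0.605, intergenic regions under 10 kb 0.927 and 0.771, and regions within 1 kb of a TSS 1.42 and 1.08. The members thus stood close to intronic regions and between the nearer and the farther intergenic regions in both libraries, while their quartile ranges overlapped all of these classes. In a bulk tissue, a site open in few cells and a site that is less open per cell cannot be told apart.

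**Figure D1:**
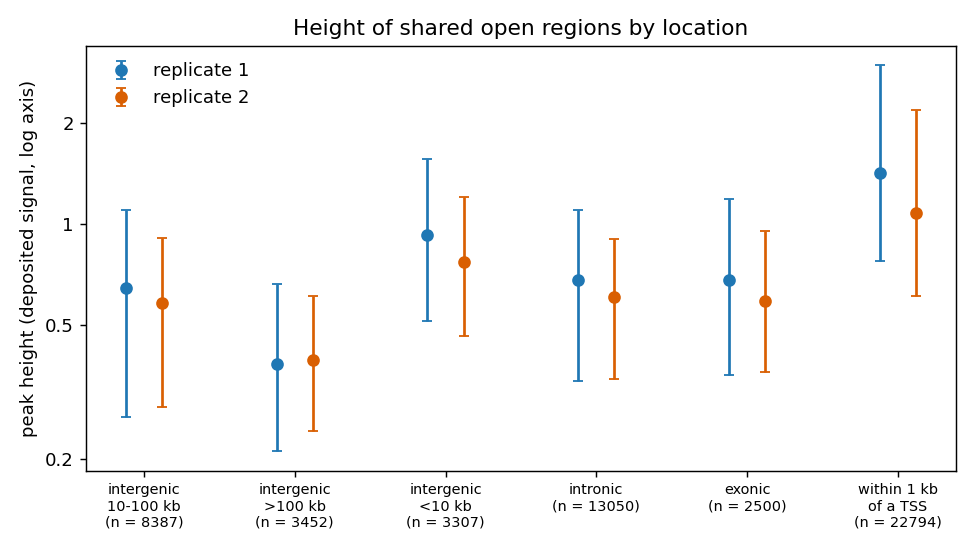
Median height (points) and quartiles (bars) of shared regions by location, for replicate 1 and replicate 2, on a log axis of the deposited peak signal. Members (intergenic 10 to 100 kb) had medians of 0.643 and 0.58, above intergenic regions beyond 100 kb (0.382 and 0.394) and below regions within 1 kb of a TSS (1.42 and 1.08).

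The positions that the location rule admits covered 509 Mb, or 19.2% of the sequence outside assembly gaps. Members occurred there at 16.5 per Mb. The density was 4.68 per Mb beyond 100 kb, 12.9 per Mb in introns, 23.5 per Mb in intergenic sequence under 10 kb from a TSS and 142 per Mb within 1 kb of a TSS. Of the members, 4766 lay upstream of the nearest protein-coding TSS, at 15.7 per Mb, and 3621 lay downstream of it, at 17.6 per Mb.

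Within the members, density, height and the share with a CTCF match were all lower in each bin farther from the TSS. From 10 to 20 kb there were 20.7 members per Mb with median heights of 0.754 and 0.659. From 30 to 50 kb there were 16.8 per Mb with heights of 0.61 and 0.55. From 75 to 100 kb there were 11.9 per Mb with heights of 0.512 and 0.479. The share with a CTCF match was 15.0%, 10.4% and 7.09% in these bins, whereas the share with a match to AP-1, the Fos and Jun dimer, was 5.89%, 6.47% and 5.42%. At the bounds of the rule, the 272 members between 10 and 11 kb had median heights of 0.822 and 0.667, beside 0.829 and 0.7 for the 295 regions between 9 and 10 kb. The 167 members between 95 and 100 kb had 0.48 and 0.467, beside 0.379 and 0.375 for the 174 regions in the next 5 kb outward.

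**Figure D2:**
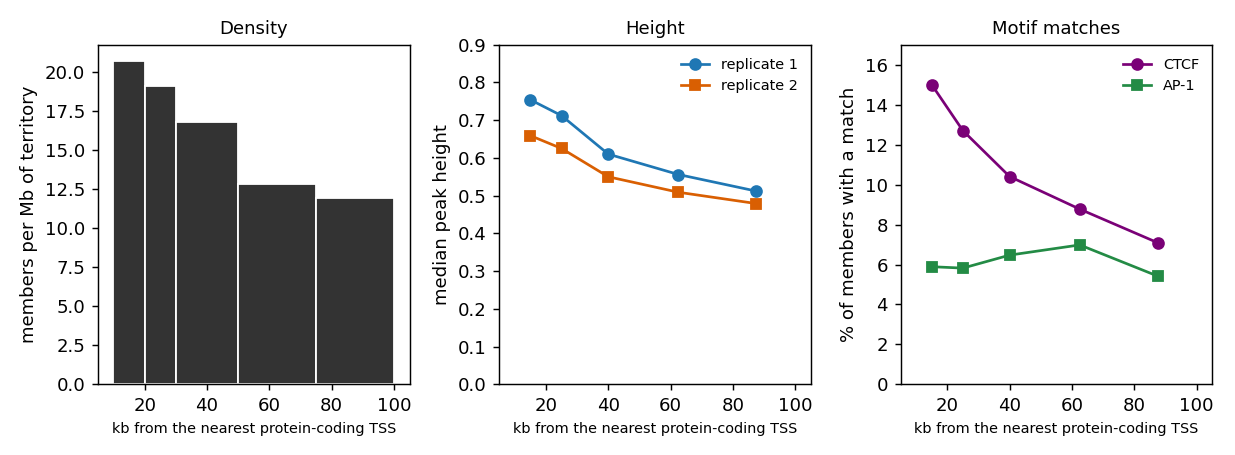
Members by distance from the nearest protein-coding TSS, in 5 bins: members per Mb of admitted sequence (left), median height per replicate (middle) and the percent with a CTCF or AP-1 match (right). Density was 20.7 per Mb in the nearest and 11.9 per Mb in the farthest bin, and the CTCF share was 15.0% and 7.09%.

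The replicates ranked the members alike. Across the 8387 members, log2 heights had a Pearson r of 0.95 and a Spearman rho of 0.946, given as a description because regions of a library are not independent. The median log2 ratio of replicate 1 over replicate 2 was 0.17 (SD 0.45 over members), against 0.28 over all shared regions, and 65.1% of members were higher in replicate 1, against 75.3% of all shared regions. This ratio rose with member height, with medians of -0.116, 0.0544, 0.242 and 0.401 by quartile from the lowest up. In the lowest height quartile of all shared regions it was -0.0828 for members and 0.012 within 1 kb of a TSS. In the highest it was 0.443 and 0.44. The part of height in the differences from all shared regions was not tested. After centring on the median of all shared regions, 16 members (0.191%) were at least 2-fold higher in replicate 1, where 0.131% of all shared regions were. In the other direction, 329 members (3.92%) were at least 2-fold higher in replicate 2, where 2.16% of all shared regions were. These 329 had median heights of only 0.116 in replicate 1 and 0.233 in replicate 2, and 57.1% of them lay in the dense stretches described further on. No test was possible with 1 library a replicate.

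Of the 329, 47 were above the median height of all members. The tallest of them was the member 35.5 kb upstream of Pak3, 9.36 high in replicate 1 and 31.1 in replicate 2, with a log2 ratio of -1.73. Of the 25-base words in its window, 55.6% occurred once in the assembly. Copies that lie in assembly gaps are not counted, so this share may be too high. On the Y chromosome, 28 members were counted although the labels give female mice. A group of 17 of them lay between positions 90717601 and 90744820, at the distal end of the assembled Y, with median heights of 0.899 in replicate 1 and 1.61 in replicate 2, and the other 11 had medians of 0.13 and 0.196. No window on Y consisted wholly of 25-base words that occur once, and in 89.3% of them the median word occurred at least 2 times. The part of repeated sequence in these heights was not tested.

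Peaks seen in a single replicate were common in the same territory. Of 30424 merged regions there, 27.6% held peaks of both replicates, 8057 held peaks of replicate 1 alone and 13980 of replicate 2 alone. The single-replicate regions had median heights of 0.191 in replicate 1 and 0.167 in replicate 2. Of those in replicate 1 alone, 6.73% touched a stretch of bases with a listed false discovery rate in replicate 2, and 4.55% of those in replicate 2 alone did so in replicate 1. Over all merged regions these shares were 7.96% and 7.63%. Peaks of both replicates were held by 34.2% of all merged regions, 26.0% of intronic ones and 58.8% of those within 1 kb of a TSS.

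The members were richer in G and C and poorer in repeats than the DNA around them. Their central windows had a median GC content of 54.0%, against 46% in windows centred 1000 bp to either side and 42.1% over the whole admitted territory. Repeats that the assembly marks by soft-masking took up 14.4% of member windows, 32.3% of flanking windows and 42.4% of the territory. In 77.1% of members every 25-base word of the window occurred once in the assembly. This share was 70.0% for intergenic regions beyond 100 kb, 83.1% for intronic regions and 90.4% for regions within 1 kb of a TSS.

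CTCF had by far the widest contrast between members and flanks among the 30 motifs searched on both strands. The motifs differ in length, which limits this ranking. The ratio of members to flanks was 1.68 for the NFI half-site and 15.2 for the full NFI palindrome. Its motif was matched in 966 members (11.5%), against 0.0941% of the 12755 flanking windows and 7.15% of all shared regions. Members with the match were tall, with medians of 1.17 and 0.959, against 0.591 and 0.538 without it. Of the 966, 518 were in the top quartile of member height and 3 in the lowest. By quartile from the lowest up, the match occurred in 0.143%, 6.01%, 15.2% and 24.7% of members. A looser form of the motif, chosen after seeing the data, was matched in 23.7% of members, 23.0% of intronic regions and 2.31% of flanks.

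Footprints covered nearly all CTCF matches. Of the bases in CTCF matches of members, 96.2% were in a footprint in replicate 1 and 92.0% in replicate 2, against 17.9% and 15.1% of all bases in member windows. For CTCF matches of the other regions over 1 kb from a TSS the shares were 96.2% and 93.1%. The rare NRF1 motif, that of a factor bound at promoters of many housekeeping genes, was matched in 12 members, with 88.5% and 70.8% of its bases in footprints. The full palindrome of NFI, a factor family of many tissues, was matched in 10 members, with 98.0% and 86.0% covered. Matches to AP-1 (TGANTCA) lay in footprints at only 11.7% and 9.27% of bases, below the share for any base. Of members 6.14% had one, against 3.98% of flanks, 4.5% of all shared regions and 6.35% of intronic ones. Members with a CTCF match were also the taller ones, and taller members had more footprints; the part of height in these shares was not tested.

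The sequences printed above follow this pattern. In Hand1, Krt8 and Cdh5 the longest capital run spans a match to the looser CTCF motif. Of the tallest members nearest each of 11 gene lists, 7 held the looser match wholly inside bases footprinted in both replicates. These 7 lie by Hand1, Krt8, Cdh5, Elavl4, Tbx3, Tat and Emx2, genes of quite different tissues. Of the 12 tallest members of all, only the one by Acot11 did so.

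Among other motifs, the E-box CAGCTG, the site of myogenic and other bHLH factors, was in 14.6% of members and 6.63% of flanks. The NFI half-site (TTGGCA, which also occurs inside the full palindrome) was in 11.3% and 6.76%, the GC box of KLF and SP factors (CCCCNCCC) in 10.4% and 7.14%, and the CRE (TGACGTCA) in 0.513% and 0.0549%. The shares over all shared regions were 13.0%, 9.42%, 19.4% and 1.06% in the same order. In intronic regions they were 15.6%, 12.7%, 11.4% and 0.36%. Some A- and T-rich motifs were less frequent in members than in flanks. The site AGATAA of the GATA factors was in 4.13% of members and 8.0% of flanks. Its share was 2.95% over all shared regions and 4.19% in intronic ones. The site of posterior HOX proteins (TTTATNG) was in 3.88% of members and 7.83% of flanks. Its share was 2.93% over all shared regions and 3.68% in intronic ones. The GC content of these windows differed as given above, and its part in the motif shares was not tested. The CArG box of SRF, a regulator of smooth muscle genes, was in 0.906% of members and 0.706% of flanks. The TEAD motif (GGAATGT) was in 2.02% and 1.89%, and MEIS (TGACAG) in 10.7% and 9.97%.

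**Figure D3:**
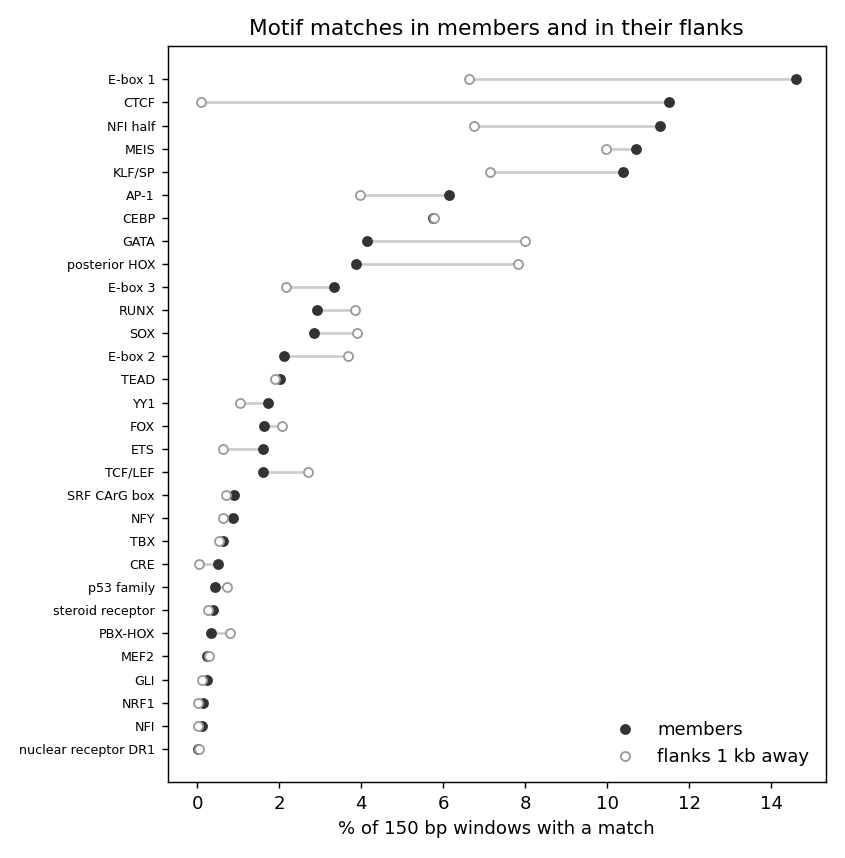
Percent of central 150 bp windows with a match to each of 30 motifs, in members (filled) and in windows 1 kb to either side (open); E-box 1 is the one described in the text, and 2 and 3 differ from it in the central bases. CTCF was in 11.5% of members and 0.0941% of flanks, while GATA and posterior HOX sites were less frequent in members.

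Being in the authors' stricter lists did not follow height in the low range. The stricter lists of both replicates held 56.2% of members, against 61.7% of all shared regions, and footprints in both replicates were found in 73.8% of members, against 79.2% of all shared regions. By height quartile from the lowest up, 66.7%, 16.3%, 45% and 96.8% of members were in both stricter lists, so the lowest quartile exceeded the second. Footprints in both replicates were more frequent in each higher quartile, with shares of 26.1%, 75.8%, 93.8% and 99.5%. In the second quartile, 84.7% of the 229 members in dense stretches were in the stricter lists, against 7.87% of the 1868 others. In the lowest quartile the shares were 72.8% and 57.5%. Intronic regions showed the same reversal. By height quartile of all shared regions, the stricter lists held 51.9% of intronic regions in the lowest and 14.8% in the second. For members these shares were 53.5% and 18.0%.

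**Figure D4:**
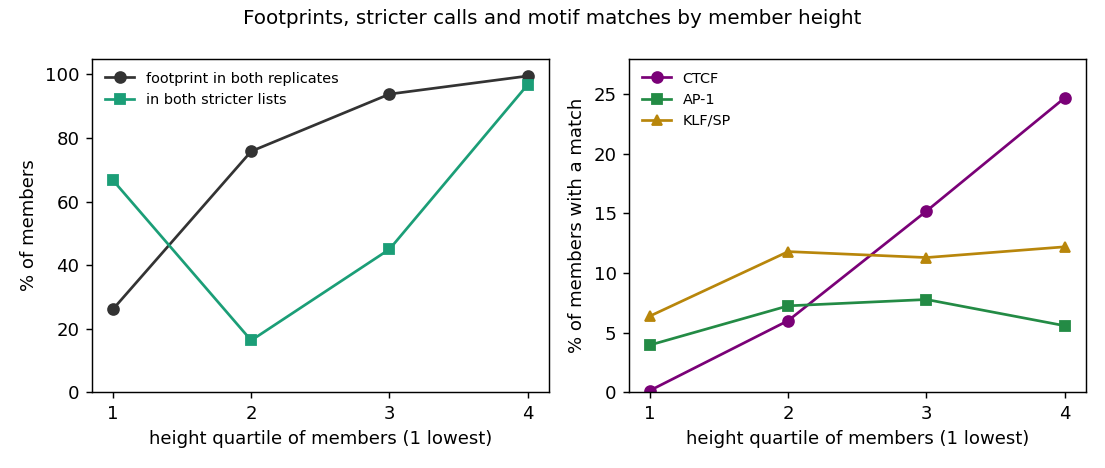
Members by quartile of height (geometric mean of both replicates, 1 lowest): percent with a footprint in both replicates and percent in both stricter lists (left), and percent with a CTCF, AP-1 or KLF/SP match (right). The stricter-list share was 66.7% in the lowest and 16.3% in the second quartile, while the CTCF share was 0.143% in the lowest and 24.7% in the highest.

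Many members were solitary, and others sat in dense, low stretches. Joined where the gap between neighbours was at most about 13 kb, the members formed 4726 clusters, and 3448 members stood alone. The 82 clusters of 10 or more members held 1611 of them (19.2%) and had a median span of 19.9 kb. Members of these 82 clusters had median heights of 0.177 and 0.192, against 0.759 and 0.669 for solitary members. CTCF was matched in 1.06% of them, against 17.1% of solitary members. Footprints in both replicates were found in 39.7%, against 86.9%, yet 75.2% were in both stricter lists, against 46.6%. Windows made wholly of words that occur once were 63.1% of the members in dense clusters and 80.4% of other members.

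The largest cluster spanned 48.1 kb upstream of Odc1, which encodes ornithine decarboxylase of polyamine synthesis (chr12:17476001-17524080). Its 70 members ran from 0.0559 to 0.549 in replicate 1 and from 0.0667 to 0.521 in replicate 2, and none exceeded the median of all members in either. AP-1 matches were in 10 of them, CTCF matches in none and the looser CTCF match in 4. Upstream of Twist2, a bHLH factor of mesenchyme, 64 members lay 31.0 to 99.8 kb away, 63 of them in 1 cluster of 53.8 kb (chr1:91701521-91755360). They ran from 0.0559 to 1.29 in replicate 1 and from 0.0834 to 1.08 in replicate 2, and 1 and 2 of them exceeded the medians of all members. The tallest closed the cluster on the side of Twist2, at 46.2 kb, and held the looser CTCF match. On the far side the cluster reached 99.8 kb, next to the 100 kb bound of the rule. Open regions past that bound were not counted, so the stretch may be longer.

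These stretches were sensitive along much of their length. Bases with a listed false discovery rate up to 0.05 covered 72.7% of the Odc1 stretch in replicate 1 and 70.2% in replicate 2, and 63.1% and 58.9% of the Twist2 stretch. Over the whole sequence outside gaps the shares were 1.18% and 1.3%. The next largest clusters had 45 members between Coro2b and Itga11 (35.3% and 45.7% of bases), 44 by Mc3r (51.1% and 45.5%), which had 63 members in all, and 41 between Slc22a2 and Slc22a3 (56.2% and 63.3%). Other genes with such neighbours included Sik1, a salt-inducible kinase (44 members), Azin1, an antizyme inhibitor (41), Six3, a homeobox factor of the forebrain and eye (36), and Zfp36l2, an RNA-decay factor (28). Promoter heights were 4.94 and 4.87 at Sik1, 6.16 and 5.44 at Azin1, 0.224 and 0.363 at Six3, and 4.13 and 3.94 at Zfp36l2. The other genes among the 20 with most members were 1700021F07Rik (37), Prickle1 (32), Mrps22 (29), Stx16 (29), Nnmt (28), Nsun2 (26), Mro (25), Rpl36-ps4 (24), Wsb1 (24), Btg1-ps1 (23), Pxdn (23) and Slc22a2 (23). Of the 20, 1700021F07Rik, Nnmt, Rpl36-ps4, Btg1-ps1 and Slc22a2 lacked a promoter peak in at least 1 replicate.

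**Figure D5:**
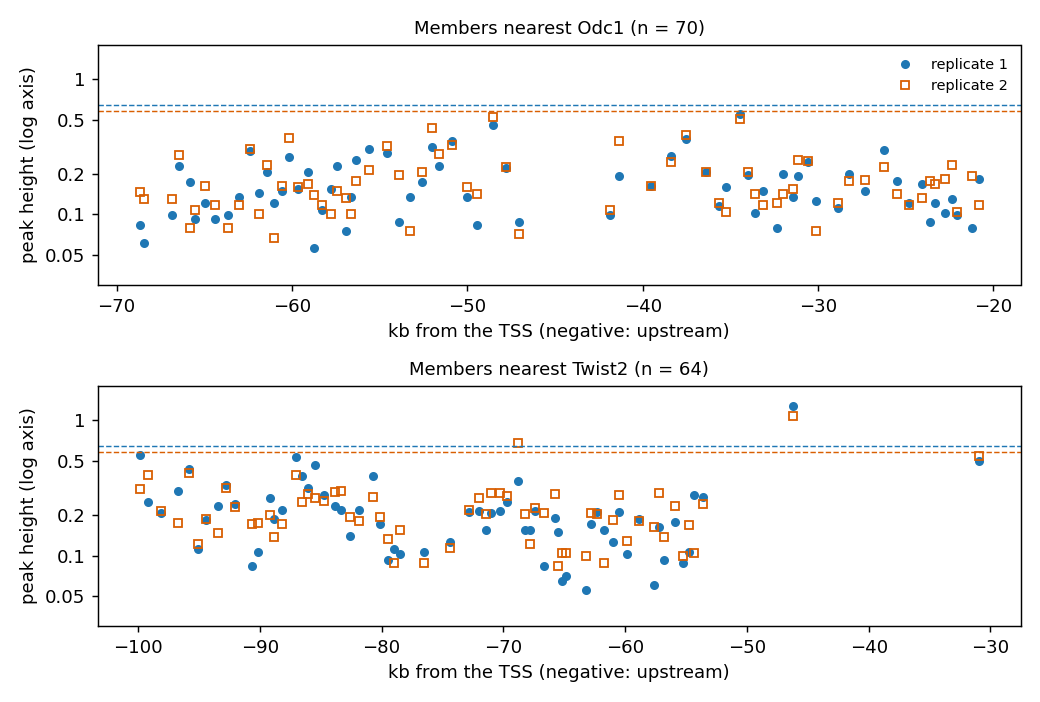
Height of every member nearest Odc1 (top, 70 members) and Twist2 (bottom, 64 members) against its distance from the TSS, on a log axis, for replicate 1 (filled) and replicate 2 (open); dashed lines mark the median of all members per replicate. All Odc1 members lie below both lines, and the tallest Twist2 member, at 46.2 kb, stands above them.

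The stretches were spread unevenly over the chromosomes. Chromosome 17 had the most members per Mb, 29.2, with median heights of 0.303 and 0.342. Clusters of 10 or more held 48.3% of its 547 members, and its other 283 members had heights of 0.81 and 0.659. The X chromosome had 7.41 members per Mb, with heights of 0.349 and 0.4, against 0.652 and 0.588 on the autosomes. Only 38.3% of X windows consisted wholly of words that occur once. The 133 members of that kind on X had heights of 0.587 and 0.563, against 0.736 and 0.638 for such members on the autosomes.

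The tallest members had more features of promoters than the rest. The tallest 100 members had a median GC content of 63.0%, and 50% of them had a CpG-rich window (GC of at least 55% and a CpG count of at least 0.65 of expectation), against 5.66% of all members and 61.7% of regions within 1 kb of a TSS. A RefSeq transcript, which the rule did not use, began within 1 kb of 18 of them and of 448 members in all (5.34%). CTCF was matched in 21% of the tallest 100.

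The 12 tallest members were 5.99 to 22.6 high in replicate 1 and 4.52 to 31.1 in replicate 2. The tallest lay 21.6 kb upstream of Igf2bp3, an RNA-binding protein of fetal tissue, at 22.6 and 16.9; 0.794% of its words occurred once and its median word occurred 4 times. Its letters read like ribosomal RNA gene sequence by general knowledge, but no annotation used here names such a gene there, and that likeness was not tested. In 9 of the 12, every word occurred once. The member 14.5 kb upstream of Zfp395, a zinc-finger gene, had 8.86 and 7.05, 8 footprints in replicate 1 and 7 in replicate 2. A RefSeq start lay 90 bp from the member by Yy1, 42 bp from the one by Zfp239 and 45 bp from the one by Wnt7b. The member by Hic2 had 6.73 and 8.8, that by Ccne1 6.96 and 5.9, that by Ptma 8.22 and 4.74, and that by Acot11 6.77 and 4.71. The member 34.1 kb upstream of Foxk1 had 7.3 and 4.52 and held the NRF1 match printed above. The member 72.7 kb upstream of Irf2bp2, a corepressor gene, had 5.99 and 5.45, a GC content of 56.0% and no RefSeq start within 1 kb.

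Assigned to the nearest protein-coding TSS, the members lay by 3879 of the 21938 protein-coding genes. The location rule left sequence by 13625 of the 21938. Of the members, 72.6% were nearest to a gene with a promoter peak in both replicates, and 62.3% of all protein-coding genes have such a peak. Per Mb of territory, there were 19.7 members by genes with that peak and 11.5 by genes without it. Median heights were 0.666 and 0.588 by the genes with a promoter peak, and 0.582 and 0.546 by those without it. Nearness does not show which gene an element acts on.

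Genes of the bladder stroma had unequal numbers of members. Of 24 mesenchymal genes 8 had a member, 90 in all, of which 64 were the Twist2 ones. Col1a1, a chain of type I collagen, had 11 with medians of 0.969 and 0.88, the tallest 69.5 kb upstream at 2.1 and 1.41, and its promoter was at 2.88 and 2.69. Col1a2, the other chain, had 6, the tallest 47.0 kb upstream at 1.43 and 1.17. Of 21 smooth muscle genes 5 had a member, 8 in all, and 19 had a promoter peak in both replicates. The location rule left sequence by only 11 of the 21. Des, the intermediate filament of muscle, had 2 upstream, the taller at 0.894 and 0.917. For Myh11, Actg2, Tagln and Cnn1 the location rule left no sequence.

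Of 26 urothelial genes 10 had a member, 33 in all. Krt8, a keratin of simple epithelia and umbrella cells, had 4 members 16.2 to 23.4 kb downstream, and the tallest was at 2.6 and 2.81. The 3 tallest of these held the looser CTCF match. Krt8 itself had no promoter peak in replicate 1 and one of 0.613 in replicate 2. Shh, the signal from urothelium to stroma, had 13 members in a cluster just past the gene, with medians of 0.158 and 0.167 and no promoter peak. The tallest of these, 15.9 kb from the TSS, was at 2.16 and 1.38 and held the looser CTCF match. Grhl2, an epithelial transcription factor, had 4 members, of which the tallest was at 1.07 and 0.73 and none held that match.

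Among other cell types, Cdh5, the endothelial cadherin, had 19 members with medians of 0.186 and 0.225. Immediate early genes had taller ones, with medians of 1.07 and 0.992 over 21 members by 7 of 20 genes. They were not alone in this: the 9 immune members had medians of 1.14 and 0.971, and the 4 mesothelial ones 1.47 and 1.39. The remaining lists with members had lower medians in both replicates. Fos had 6, and its members 18.5 kb upstream and 11.2 kb downstream were 4.93 and 4.96 high in replicate 1 and 4.27 and 3.46 in replicate 2, above its promoter at 2.29 and 1.62. Btg2, an antiproliferative gene, had 5, the tallest at 3.0 and 2.52. Of 18 immune genes 5 had a member, 9 in all, 5 of them by the T-cell factor gene Runx3, with medians of 0.982 and 0.913; the tallest of the 9, by Adgre1, was at 3.12 and 1.98. No striated muscle gene of 16 had a member, and 2 hepatocyte genes of 14 had 1 each. The location rule left sequence by only 8 of those 16 (0.166 Mb in all) and by 12 of those 14. Over all protein-coding genes, 17.7% had a member, at 16.5 members per Mb of their territory. The lists had 46.1 per Mb for mesenchymal, 38.3 for endothelial, 35.5 for urothelial, 31.8 for immediate early, 29.2 for smooth muscle and 29.1 for immune genes. Single genes decided the highest values. Without Twist2 the mesenchymal genes had 14.1 per Mb, and without Cdh5 the endothelial genes had 14.0. The 16.5 per Mb over all genes keeps every dense cluster. Without clusters of 10 or more members it was 13.3. Without Shh the urothelial genes had 22.0, without Fos the immediate early genes had 25.6, without Des the smooth muscle genes had 22.8 and without Runx3 the immune genes had 21.1. Homeobox genes of the urinary tract and body axis had 9 members by 4 of 21 genes, at 12.9 per Mb, and mesothelial genes had 4 by 2 of 9, at 20.9. The rule left sequence by 10 of the 21 homeobox genes and 7 of the 9 mesothelial ones. Without Krt19, whose 3 members also count for the urothelial list, the mesothelial genes had 5.6 per Mb. Genes of peripheral glia and neurons had 4 by 3 of 14, at 7.25 per Mb, genes of the central nervous system 4 by 3 of 15, at 9.28, and hepatocyte genes 8.53 per Mb. Leaving out 1 gene was added after the values were seen, and lists this short allow no statement about cell types.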

How the data were processed

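DNase-seq was analysed in 1 group of 2 biological replicates, with 1 library each. The authors deposited, per sample, a longer and a shorter peak list, false discovery rates, footprints and a description. Positions refer to mm10, per the labels. The authors give peak height as a signal whose scale the sources used here do not state. They do not state the aligner, the callers, their versions or the total depth either. Rates per stretch of bases are, per the file descriptions, false discovery rates (q-values), listed up to 0.05. The deposited footprint lists hold 0.01 throughout in that p-value column.

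Longer lists were merged where peaks overlapped by at least 1 bp, and the tallest peak gave the height in a replicate. Motifs, GC content and 25-base words were read in 150 bp windows around the mean centre of these tallest peaks. Words were counted on both strands over the reference chromosomes and their unplaced contigs, which leaves out any copy inside an assembly gap. Density is per Mb of sequence that the location rule admits outside gaps. A promoter peak overlaps 500 bp on either side of a TSS. No test was run, since a single group allows none. Members and lists were chosen with earlier results of these data known. Regions named are the 12 tallest, the tallest of each list and the one nearest the median; genes named are the 20 with most members and list genes with 5 or more; clusters named are the 5 largest. Des, Grhl2, Fam50b, Gm14496, Gm21860, Gm21119 and the median members of the Odc1 and Twist2 stretches were added after their values were seen. The functions were tested on simulated data, where all 10 checks gave the planted answer. Python 3.11.15, numpy 2.4.6, pandas 2.3.3, numba 0.67.0 and matplotlib 3.10.9 were used, and overlaps were checked with bedtools 2.31.1.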

Additional observations from a re-analysis of the deposited data

How the results depend on the processing

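The number of members was 4768 with the stricter peak lists, at 9.36 per Mb, 14.3% of shared regions, a median height of 0.875 (mean of both replicates' medians), 76.3% with footprints in both and 65.2% nearest a gene with an open promoter. Where peaks had to share 50% of each, the height was 0.7, the footprint share 79.6% and the open-promoter share 66.5%. With a single replicate's peaks, members numbered 16631 to 22709, at 32.7 to 44.6 per Mb and 17.8% to 18.9% of regions, with heights of 0.217 to 0.335, footprints in 57.1% to 66.3%, AP-1 matches in 5.34% to 5.65% and open promoters for 74.1% to 77%; without replicate 1 the count was the higher. The ratio of replicates has no value there. Windows of 300 bp had AP-1 in 10.6%, and a promoter window of 1000 bp gave 73.7%. Without clusters of 10 or more members, an alternative chosen after seeing the data, the height was 0.711 and the footprint share 81.9%. Position from the tallest peaks, bounds from 20 kb or to 50 kb and a gap of 5 kb left counts within 1.5 times. The causes of these shifts were not tested. No paired analysis was possible because there is only 1 group. Low heights rest on few steps, 29 and 37 in the Odc1 example, and total depth is unknown.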

Other observations

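Width did not separate the members from other distal regions. The median member spanned 200 bp, as did the median intronic region, against 260 bp within 1 kb of a TSS. In the lowest quartile of member height the median width was 280 bp, and in the second it was 184 bp.

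Members with a RefSeq transcript start within 1 kb were taller than the others. These 448 had median heights of 0.906 and 0.734, against 0.629 and 0.571 for the other 7939, and 21.2% of them had a CpG-rich window, against 4.79%. The ETS motif (CCGGAAG), frequent at promoters, was in 4.02% of them, against 1.47% of the others.

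The YY1 motif (AAGATGGC) was in 144 members, with 37.1% of its bases in footprints in replicate 1 and 33.8% in replicate 2. The CRE was in 43 members, with 45.3% and 41.1% of its bases in footprints.

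Among tall members that differed at least 2-fold between the replicates after centring, 4 lay by Gm21860 on Y, at 1.06 to 1.32 in replicate 1 and 2.06 to 2.95 in replicate 2. The member by Fam50b had 1.18 in replicate 1 and 2.03 in replicate 2, and all of its words occurred once. The member by Gm14496 had 1.28 in replicate 1 and 2.45 in replicate 2, and 83.3% of its words occurred once. The member by Gm21119 on chromosome 8 was higher in replicate 1, with 3.82 there and 1.48 in replicate 2, and 7.94% of its words occurred once.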
